A study of Mus musculus with 12 samples.

Results

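Collagen is modified by enzymes at 2 stages, and 10 mouse genes that encode such enzymes are described here, of 19439 entries in the deposited table: 5 lysyl oxidases (Lox, Loxl1, Loxl2, Loxl3 and Loxl4), 3 lysyl hydroxylases (Plod1, Plod2 and Plod3) and 2 prolyl 4-hydroxylase α subunits (P4ha1 and P4ha2). They were chosen by name with earlier results of these data known, as were the gene lists used below. Counts of them beside shares of all genes are therefore not independent evidence of direction. Each of the 10 matched 1 row of the table, and all passed the filter on low values (Loxl2 through the libraries of 1 line only). Inside the endoplasmic reticulum, prolyl 4-hydroxylases hydroxylate proline residues of procollagen, which stabilises the triple helix, and lysyl hydroxylases hydroxylate lysine residues, which sets the kind of crosslink formed later. Both kinds of hydroxylase need iron, oxygen, ascorbate and 2-oxoglutarate, a metabolite that cells also make from glutamine. Outside the cell the copper-dependent lysyl oxidases oxidise lysine and hydroxylysine residues of collagen and elastin to aldehydes, from which covalent crosslinks form. Fibroblasts are the main source of these enzymes in connective tissue.

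The samples came from a pair of 3T3 lines, immortal mouse embryonic fibroblasts, one labelled wild type for p53 (WT) and one labelled p53 -/- (p53-null). Both were kept in DMEM with 25 mM glucose, and for 18 h they received DMEM with 2 mM L-glutamine (complete) or without it (glutamine-free). Each of the 4 groups (WT complete, WT glutamine-free, p53-null complete and p53-null glutamine-free) held 3 libraries, 12 in all. With 1 line per genotype, a difference between genotypes is a difference between these 2 lines. Nothing in the labels ties the 3 libraries to separate cultures, and the spread on which the p-values rest may therefore be technical.

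Levels are in RPKM, reads per kilobase of transcript scaled to the mapped reads of the library, and are given as mean ± SD with n = 3 libraries. Because RPKM is per length, levels of different genes can be set side by side. Changes are log2 differences of RPKM + 1 with their standard error (SE). P-values are from limma, adjusted by the Benjamini-Hochberg method over all 11461 genes tested, and a gene was called at an adjusted p under 0.05. Depth was estimated at 37.6 to 46.8 M reads per library from the steps in low values, and the sum of RPKM was 284426 to 319735. The p53 gene Trp53 was at 57.8 to 59.0 RPKM in WT complete, 109.4 to 113.9 in WT glutamine-free, 27.9 to 29.6 in p53-null complete and 33.9 to 35.2 in p53-null glutamine-free libraries, so transcript remained in the line labelled null. A deletion of single exons would not be visible in a gene-level value. Of 10 fibroblast markers 9 averaged at least 1 RPKM in every group, with Thy1 the exception. Their summed level was 3252 to 3272 RPKM in WT complete, 547 to 553 in WT glutamine-free, 1994 to 2017 in p53-null complete and 894 to 921 in p53-null glutamine-free libraries. Vim made up most of the p53-null sums, at 1730 RPKM with and 770 without glutamine. In complete medium Vim and Thy1 were higher in the p53-null line than in WT, and the other markers were lower. Col1a2, Dcn and S100a4 averaged 712, 472 and 945 RPKM in WT complete and 29.5, 18.0 and 19.3 in p53-null complete libraries. Of 5 epithelial markers, Krt18 and Krt19 reached 1 RPKM in the p53-null line and none did in WT. Krt8 stayed under 1 RPKM in the p53-null line, at 0.763 with and 0.296 without glutamine. Cdh1 was lower there than in WT, at 0.0630 and 0.0187 RPKM against 0.0965 and 0.0441, complete before glutamine-free. The list summed to 0.186 to 0.252 and 0.0691 to 0.129 RPKM in WT complete and glutamine-free and to 77.2 to 78.4 and 82.5 to 84.7 RPKM in p53-null complete and glutamine-free libraries, while Epcam stayed at or under a mean of 0.00718 RPKM in each group. Of 4 adipocyte markers, Fabp4 alone exceeded 1 RPKM, and the list summed to 21.9 to 23.9 RPKM in WT complete, 0.560 to 1.03 in WT glutamine-free, 0.1003 to 0.130 in p53-null complete and up to 0.0469 in p53-null glutamine-free libraries, with Adipoq and Cidec at 0 in WT complete. Other marker lists held genes over 1 RPKM as well. Cartilage markers summed to 27.9 to 28.3 RPKM in WT complete and 12.1 to 12.9 in p53-null complete libraries. In the same groups the osteoblast marker Runx2 averaged 9.83 and 7.49 RPKM, and the blood marker Cd68 1.23 and 7.06 RPKM. The part of all these markers in the results below was not tested.

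**Figure D1:**
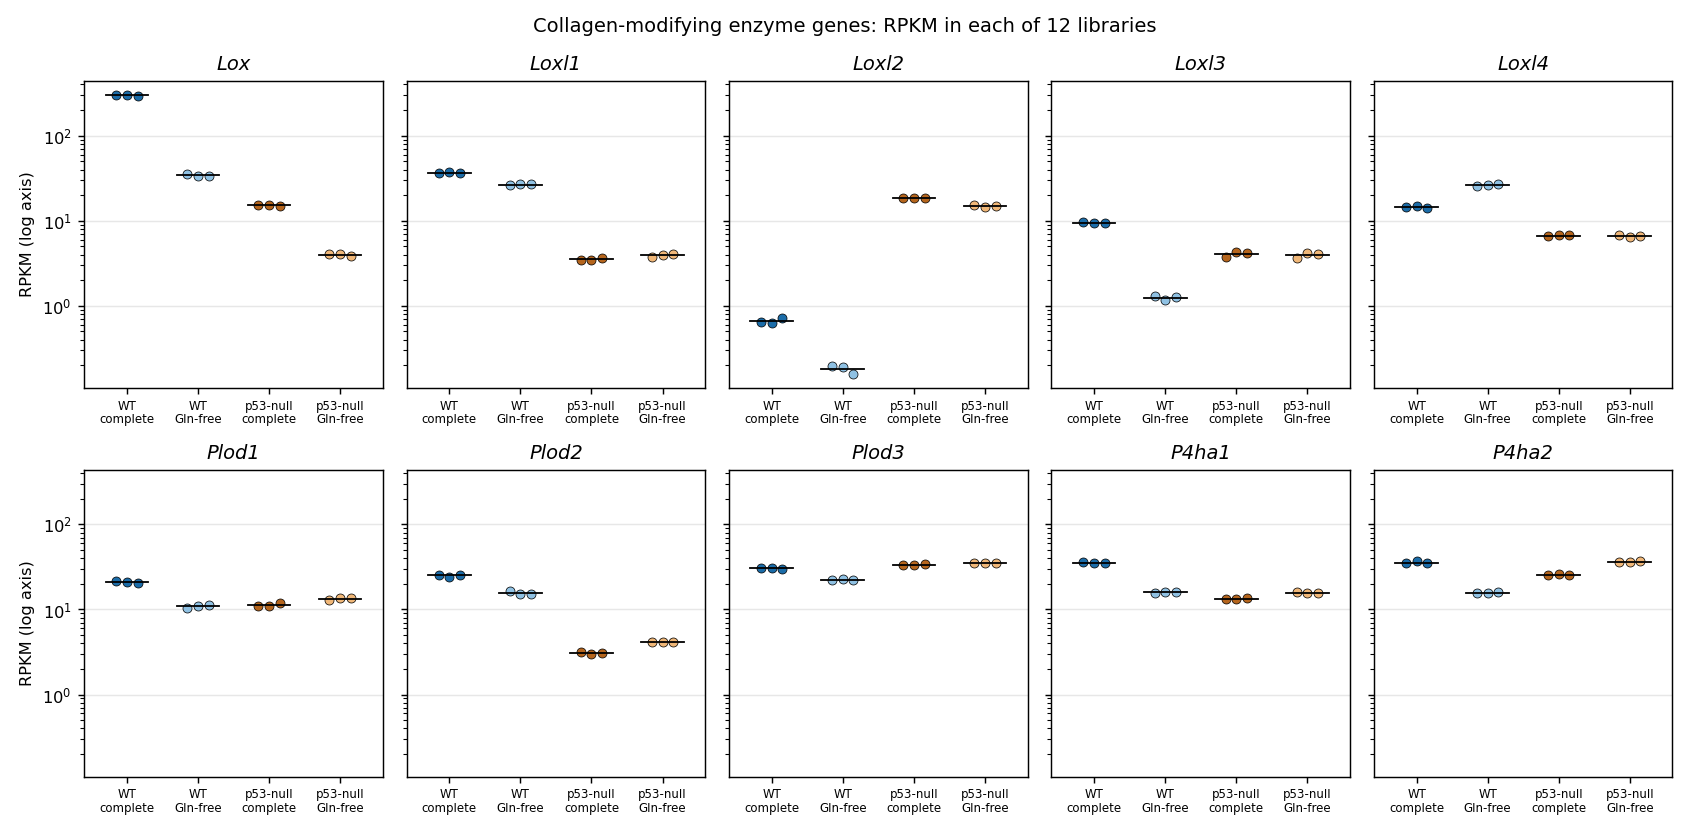
RPKM of the 10 genes on a log axis shared by the panels. Each point is 1 library, 3 per group, and the line is the group mean. Lox spans the widest range, from 297 RPKM in WT complete to 4.01 RPKM in p53-null glutamine-free libraries, and Loxl2 is the only gene of the 10 that lies under 1 RPKM in WT libraries and over 14 RPKM in p53-null libraries.

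Without glutamine 9 of the 10 genes fell in WT cells and 1, Loxl4, rose. Loxl2, among the 9, was under 1 RPKM there in both media. Over all genes tested, 90.1% were called in that comparison, 44.0% lower and 46.0% higher. Of the 10, 4 fell by at least 2-fold on the log2 scale used (Lox, Loxl3, P4ha1 and P4ha2), against 12.9% of all genes, and none rose by as much, against 9.75%. The median log2 change of the 10 was -0.77, beside 0.01 for all genes tested. In p53-null cells 6 of the 10 rose (Loxl1, Plod1, Plod2, Plod3, P4ha1 and P4ha2), 2 fell (Lox and Loxl2) and 2 did not pass, with 82.0% of all genes called, 50.0% higher and 32.0% lower. Only Lox passed 2-fold there, where 2.03% of all genes were lower and 1.27% higher by that much, and the median of the 10 was 0.09 beside 0.08 for all genes. RPKM is relative to the other transcripts of a library, and in bulk RNA fewer expressing cells and less RNA per cell cannot be told apart.

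These counts in p53-null cells depended on how libraries were scaled. Centring each library on its median shifted the median of all genes by -0.11 in that comparison and gave 4 of the 10 higher and 5 lower, and 4525 higher and 4984 lower genes in all, where the scale as deposited gave 5732 and 3671. Quantile normalization gave 5 higher and 4 lower of the 10. Plod1, Plod2, P4ha1 and P4ha2 rose under each scaling tried.

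**Figure D2:**
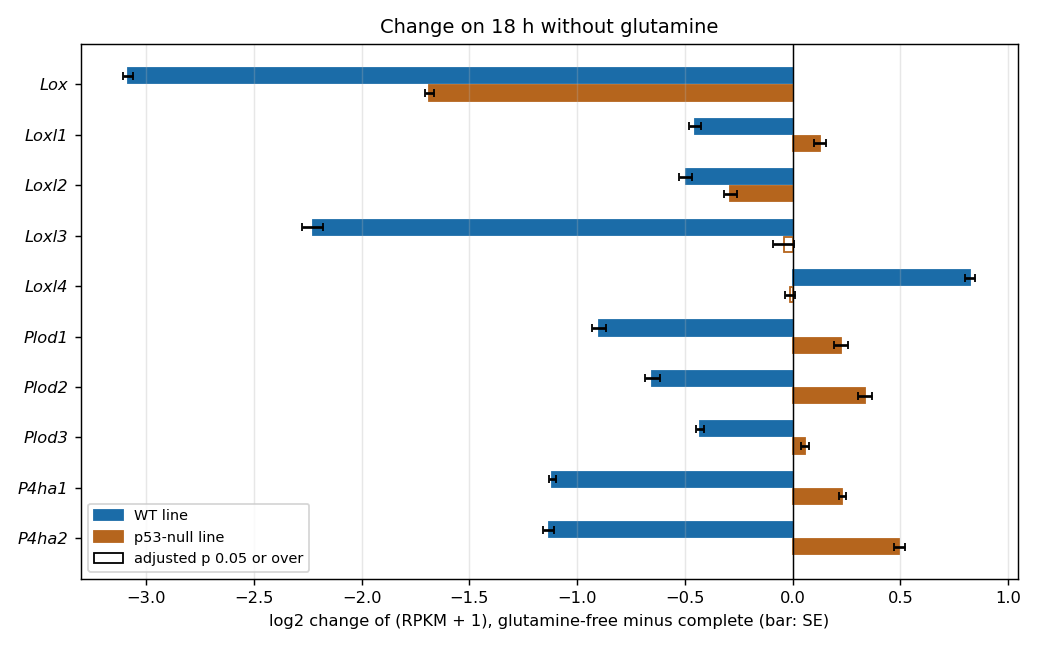
Change on glutamine withdrawal in log2(RPKM + 1), glutamine-free minus complete, for the WT line (blue) and the p53-null line (brown), with SE as error bars and open bars where the adjusted p was 0.05 or over. Blue bars point left for all genes but Loxl4, and brown bars point right for 6 genes.

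Among the lysyl oxidases, Lox, the founding member of the family, made up most of the family's transcripts in WT cells with glutamine and fell in both lines. Lox lies on chromosome 18 at 52516067 to 52529867 (minus strand, mm10). It was at 301, 297 and 294 RPKM in the 3 WT complete libraries and at 35.2, 34.0 and 33.4 RPKM in the WT glutamine-free libraries. In p53-null cells it was at 15.3, 15.1 and 14.97 RPKM with glutamine and at 4.06, 4.08 and 3.90 RPKM without. The 4 groups did not overlap, and WT libraries without glutamine still exceeded p53-null libraries with glutamine. In WT the mean without glutamine was 11.5% of that with it, and the log2 change was -3.08 ± 0.021 (SE, limma adjusted p = 1.8e-18). The p53-null mean was 26.5% of that with glutamine, with a log2 change of -1.69 ± 0.021 (adjusted p = 5.7e-15). The WT change was the larger by 1.40 ± 0.030 on the log2 scale (difference WT minus p53-null -1.40, adjusted p = 2e-13).

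Loxl1, whose product is known for crosslinking elastin, lies on chromosome 9 at 58287738 to 58313186 (minus strand). In WT cells it went from 36.9 ± 0.111 to 26.7 ± 0.601 RPKM, and in p53-null cells from 3.53 ± 0.0897 to 3.94 ± 0.183 RPKM. The libraries of the 2 media did not overlap in either line. The log2 change was -0.45 ± 0.028 in WT (adjusted p = 3.4e-09) and 0.13 ± 0.028 in p53-null cells (adjusted p = 0.0011). The small rise in p53-null cells was lost with median centring (log2 change 0.02, adjusted p = 0.48).

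Loxl2, a lysyl oxidase-like protein with scavenger receptor domains and a known role in crosslinking collagen IV, was nearly absent from the WT line and abundant in the p53-null line. Loxl2 lies on chromosome 14 at 69609068 to 69695834 (plus strand), with 5.57% of its exon length under the predicted gene Gm27177 on the other strand. Its WT values were 0.653, 0.629 and 0.722 RPKM in complete and 0.195, 0.193 and 0.159 RPKM in glutamine-free libraries. Its p53-null values were 18.7, 18.3 and 18.5 RPKM in complete and 15.4, 14.4 and 15.1 RPKM in glutamine-free libraries. Every p53-null library exceeded every WT library, and within each line the 2 media did not overlap. No WT library reached 1 RPKM, so Loxl2 passed the filter on low values only through the p53-null libraries. In WT the mean without glutamine was 27.2% of that with glutamine, which the pseudocount of 1 compressed to a log2 change of -0.50 ± 0.032 (adjusted p = 4.7e-09). A pseudocount of 0.1 gave -1.45. The p53-null change was -0.29 ± 0.032 (adjusted p = 2.2e-06). By the estimated depth and the annotated length, the WT glutamine-free values rest on about 37 to 41 reads per library, an approximation since read counts were not recovered from RPKM. The WT response minus the p53-null response was -0.21 ± 0.045 (adjusted p = 0.00082) and -1.14 with the pseudocount of 0.1. It was -0.11 with median centring (adjusted p = 0.055) and turned to 0.13 under quantile normalization, so no order of the responses is given for this gene.

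Loxl3 and Loxl4, also of the subgroup with scavenger receptor domains, moved in opposite directions in WT cells and did not pass in p53-null cells. Loxl3 (chromosome 6, 83034173 to 83052562, plus strand) was at 9.63, 9.50 and 9.46 RPKM in WT complete and at 1.31, 1.16 and 1.27 RPKM in WT glutamine-free libraries. It was at 3.80, 4.32 and 4.20 RPKM in p53-null complete and at 3.64, 4.18 and 4.07 RPKM in p53-null glutamine-free libraries. The p53-null groups overlapped and lay between the WT groups, which did not. The log2 change was -2.23 ± 0.048 in WT (adjusted p = 5e-14) and -0.04 ± 0.048 in p53-null cells (adjusted p = 0.44), and the difference of the responses was -2.19 ± 0.068 (adjusted p = 6.2e-12). With median centring the p53-null change was -0.15 (adjusted p = 0.0097). Of the exon length of Loxl3, 11.6% lies under Htra2 on the other strand, and reads there cannot be assigned because the library kit does not mark strand.

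Loxl4 (chromosome 19, 42593982 to 42612813, minus strand) was the only one of the 10 that rose in WT cells. It was at 14.3, 14.8 and 14.1 RPKM in WT complete and at 25.9, 26.1 and 26.9 RPKM in WT glutamine-free libraries. In p53-null cells it was at 6.61, 6.72 and 6.73 RPKM with glutamine and at 6.76, 6.52 and 6.56 RPKM without. The WT groups did not overlap and the p53-null groups did. The rise in WT was 1.82-fold in RPKM, or 0.82 ± 0.023 on the log2 scale (adjusted p = 7.2e-13), against -0.01 ± 0.023 in p53-null cells (adjusted p = 0.58). The responses differed by 0.84 ± 0.033 (adjusted p = 5.6e-11). Median centring and quantile normalization turned the p53-null value into a called fall, of -0.12 and -0.10, and rescaling to one sum turned its sign, at 0.01 (adjusted p = 0.77).

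The shares of the lysyl oxidases in the family's transcripts shifted with medium, while the gene with the largest share stayed the same within each line. In WT complete libraries the 5 genes summed to 359 ± 3.61 RPKM, of which Lox held 82.9% ± 0.164 (SD), Loxl1 10.3% ± 0.110 and Loxl4 4.02% ± 0.0880. Without glutamine the WT sum was 88.6 ± 0.0498 RPKM, with 38.6% ± 1.03 from Lox, 30.1% ± 0.671 from Loxl1 and 29.7% ± 0.540 from Loxl4. In that group Lox remained highest, at 33.4 RPKM or more, while the libraries of Loxl1 and Loxl4 overlapped in level. In the p53-null line the sum was 48.0 ± 0.105 RPKM with and 33.5 ± 0.276 RPKM without glutamine, and Loxl2 held the largest share, 38.6% ± 0.441 and 44.7% ± 1.17. The Lox share there was 31.6% ± 0.420 with and 11.98% ± 0.357 without glutamine. In p53-null glutamine-free libraries the levels of Lox, Loxl3 and Loxl1 overlapped, at 4.01, 3.96 and 3.94 RPKM on average. Sums and shares describe these libraries and carry no test.

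**Figure D3:**
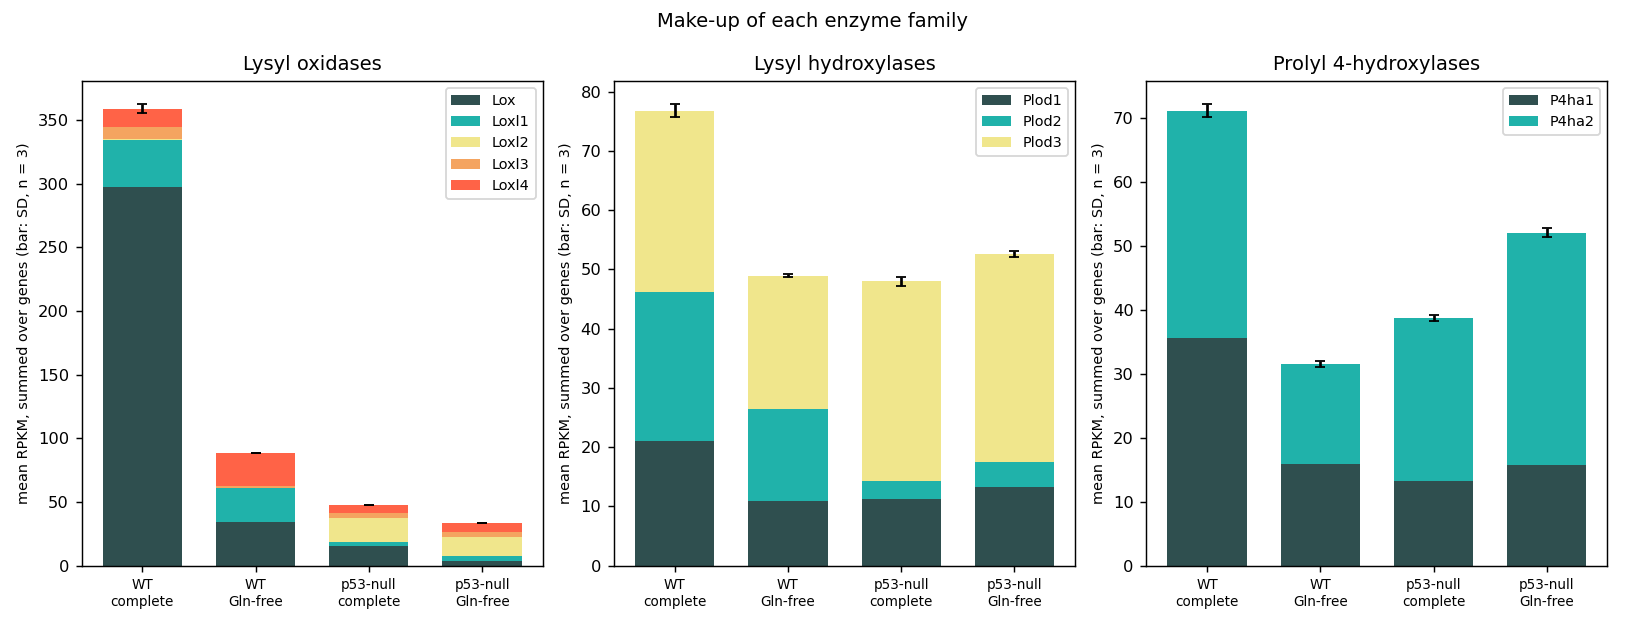
Mean RPKM of each gene, stacked within its family, in the 4 groups. Error bars are the SD of the summed RPKM over 3 libraries. Lox dominates the tall WT complete bar of the lysyl oxidases, Plod3 holds most of the lysyl hydroxylase bars of the p53-null line, and P4ha1 and P4ha2 are level in WT and unequal in p53-null libraries.

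The 3 lysyl hydroxylase genes fell in WT cells and rose in p53-null cells, with Plod3 turning to a fall there under 2 other scalings. Plod1, whose product acts mainly on lysines of the collagen helix, lies on chromosome 4 at 147909753 to 147936767 (minus strand). Plod1 was at 21.5, 21.1 and 20.7 RPKM in WT complete, 10.4, 10.9 and 11.3 RPKM in WT glutamine-free, 10.97, 11.1 and 11.8 RPKM in p53-null complete and 12.9, 13.6 and 13.6 RPKM in p53-null glutamine-free libraries. WT complete libraries stood above the rest, and WT glutamine-free overlapped with p53-null complete libraries. Its log2 change was -0.90 ± 0.032 in WT (adjusted p = 9.8e-12) and 0.23 ± 0.032 in p53-null cells (adjusted p = 2.6e-05).

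Plod2, which encodes the enzyme that hydroxylates the non-helical telopeptides of collagen, lies on chromosome 9 at 92542223 to 92608428 (plus strand), with 6.42% of its exon length under Gm38391 on the other strand. It was at 25.6, 24.4 and 25.3 RPKM in WT complete and at 16.6, 15.3 and 15.1 RPKM in WT glutamine-free libraries. It was at 3.16, 3.02 and 3.08 RPKM in p53-null complete and at 4.14, 4.15 and 4.20 RPKM in p53-null glutamine-free libraries. All WT libraries exceeded all p53-null libraries, and the media did not overlap in either line. The log2 change was -0.65 ± 0.033 in WT (adjusted p = 3.6e-10) and 0.34 ± 0.033 in p53-null cells (adjusted p = 6.2e-07).

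Plod3, whose product also has glycosyltransferase activity toward hydroxylysine, varied least of the 10, by 0.62 on the log2 scale from its lowest to its highest group. It lies on chromosome 5 at 136987019 to 136996648 (plus strand), with 11.7% of its exon length under Znhit1 on the other strand. Its means were 30.6 ± 0.543 and 22.5 ± 0.326 RPKM in WT complete and glutamine-free and 33.6 ± 0.321 and 35.0 ± 0.312 RPKM in p53-null complete and glutamine-free libraries. The WT change was -0.43 ± 0.017 (adjusted p = 3.3e-11). The rise in p53-null cells, 0.06 ± 0.017 (adjusted p = 0.0084), turned to a called fall of -0.09 with quantile normalization and -0.05 with median centring. Plod1, Plod2 and Plod3 differed in response between the lines by -1.12 ± 0.046, -0.99 ± 0.046 and -0.49 ± 0.025 (adjusted p = 8.6e-11, 3.5e-10 and 7.2e-10), WT minus p53-null.

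The share of Plod2 among the lysyl hydroxylases was lower in every p53-null library than in any WT library, while the ratio of Plod3 to Plod1 moved with both line and medium. Plod2 held 32.7% ± 0.696 of the summed RPKM of the 3 genes in WT complete and 31.9% ± 1.51 in WT glutamine-free libraries, against 6.43% ± 0.200 and 7.92% ± 0.0241 in p53-null libraries. Plod3 held 39.8% ± 0.529 and 45.9% ± 0.746 in WT and 70.1% ± 0.456 and 66.7% ± 0.503 in p53-null complete and glutamine-free libraries. On the log2 scale the ratio of Plod2 to Plod1 was 0.25 ± 0.040 (SD) and 0.53 ± 0.126 in WT and -1.87 ± 0.073 and -1.68 ± 0.034 in p53-null libraries. That of Plod3 to Plod1 was 0.54 ± 0.012 and 1.05 ± 0.051 in WT and 1.58 ± 0.044 and 1.39 ± 0.041 in p53-null libraries, complete before glutamine-free. Multiplying a library by a factor leaves such a ratio as it is.

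The prolyl 4-hydroxylase genes P4ha1 and P4ha2 encode alternative α subunits, the catalytic part of a tetramer completed by the protein that P4hb encodes. They moved together within each line. In the RefSeq promoter table (GRCm38.p6, the assembly that mm10 names) 5 of the 10 genes were matched: Loxl4, Plod1, Plod3, P4ha1 and P4ha2. Plod1, Plod3, P4ha1 and P4ha2 fell in WT and rose in p53-null cells on the deposited scale, and of these 4 the 3 that hold ACGTG are shown over the 150 bases before the transcription start. ACGTG is 1 form of the core bound by hypoxia-inducible factors, and several basic helix-loop-helix factors bind it too. The other form, GCGTG, was not searched over all entries. It occurs in the 150 bases of Plod1 as well as in the 3 windows shown. Capitals mark ACGTG on either strand.
P4ha1, chr10:59323146-59323295, plus strand: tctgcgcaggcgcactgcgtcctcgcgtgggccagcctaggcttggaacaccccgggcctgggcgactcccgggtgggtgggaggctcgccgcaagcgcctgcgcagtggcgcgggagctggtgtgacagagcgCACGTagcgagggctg
P4ha2, chr11:54100774-54100923, plus strand: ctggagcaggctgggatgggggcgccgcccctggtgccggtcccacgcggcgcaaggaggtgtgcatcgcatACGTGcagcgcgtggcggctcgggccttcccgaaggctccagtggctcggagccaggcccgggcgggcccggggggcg
Plod3, chr5:136986869-136987018, plus strand: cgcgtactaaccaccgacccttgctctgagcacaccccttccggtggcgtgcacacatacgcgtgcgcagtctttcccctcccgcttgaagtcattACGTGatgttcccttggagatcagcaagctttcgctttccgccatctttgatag
The P4ha2 window lies inside the gene span given below, since that annotated span begins further upstream. The match began 16 bases before the start in P4ha1, 78 in P4ha2 and 54 in Plod3. In the 250 bases before the start, ACGTG was found on either strand in 16.6% of 32851 promoter entries, and not in the entries of Plod1 and Loxl4. The amino acid response core TGATGNAA, found in 3.45% of entries, was in none of the 5. The G-rich box GGGCGG, found in 32.7%, was in Loxl4, Plod1, P4ha1 and P4ha2. These matches describe the letters of the window only.

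P4ha1 (chromosome 10, 59323296 to 59373304, plus strand) was at 35.9, 35.4 and 35.4 RPKM in WT complete and at 15.8, 16.0 and 15.9 RPKM in WT glutamine-free libraries. In p53-null cells it was at 13.2, 13.2 and 13.5 RPKM with glutamine and at 15.9, 15.6 and 15.8 RPKM without. Without glutamine the libraries of the lines overlapped, and with glutamine all WT libraries were higher. The log2 change was -1.11 ± 0.017 in WT (adjusted p = 1.6e-15) and 0.23 ± 0.017 in p53-null cells (adjusted p = 3.3e-08).

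P4ha2 (chromosome 11, 54100095 to 54131665, plus strand) was at 35.0, 36.9 and 35.0 RPKM in WT complete and at 15.5, 15.5 and 16.2 RPKM in WT glutamine-free libraries. It was at 25.2, 26.0 and 25.2 RPKM in p53-null complete and at 35.9, 36.0 and 37.0 RPKM in p53-null glutamine-free libraries. The p53-null libraries without glutamine thus reached the range of WT libraries with glutamine. The log2 change was -1.13 ± 0.025 in WT (adjusted p = 7.7e-14) and 0.49 ± 0.025 in p53-null cells (adjusted p = 1.1e-09). Responses differed between the lines by -1.34 ± 0.024 for P4ha1 and -1.63 ± 0.036 for P4ha2 (adjusted p = 3.8e-14 and 2.9e-13).

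In WT cells both α subunit genes stood at one level in both media, and in p53-null cells P4ha2 was the higher. The log2 ratio of P4ha2 to P4ha1 was 0.0015 ± 0.050 (SD) in WT complete and -0.017 ± 0.040 in WT glutamine-free libraries. In p53-null libraries it was 0.94 ± 0.038 with and 1.203 ± 0.026 without glutamine, that is 1.92-fold and 2.30-fold. The β subunit gene P4hb, chosen for its role with its values known, was at 452 ± 3.36 and 248 ± 1.91 RPKM in WT complete and glutamine-free and at 238 ± 1.42 and 239.5 ± 1.28 RPKM in p53-null complete and glutamine-free libraries. Its log2 change was -0.86 ± 0.011 in WT (adjusted p = 5e-16) and 0.01 ± 0.011 in p53-null cells (adjusted p = 0.54).

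The test of the difference between the 2 responses was passed by all 10 genes, 9 with the lower value in WT and 1, Loxl4, with the higher. Loxl2 is among the 9 on the deposited scale, but it did not pass with median centring, which left 8 lower and 1 higher, and it changed direction under quantile normalization, which gave 8 and 2. Over all genes 84.9% passed, 46.4% in the lower and 38.4% in the higher direction. That balance also turned with the scaling, to 4617 lower and 5151 higher genes with median centring, which shifted the median of all genes by 0.10, and to 4611 and 5130 under quantile normalization. By at least 2-fold, 5 of the 10 (Lox, Loxl3, Plod1, P4ha1 and P4ha2) were lower, against 9.98% of all genes, and none was higher by as much, against 5.58%. Plod2 was just short of that cutoff, at -0.99, and past it under quantile normalization (-1.06) and rescaling to one sum (-1.03). The medium comparisons and the line comparisons share libraries, so their values are set side by side and not correlated.

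Between the lines in complete medium, 8 of the 10 genes were lower in p53-null cells and Loxl2 and Plod3 were higher, with 90.9% of all genes called, 42.5% lower and 48.4% higher. At least 2-fold lower were Lox, Loxl1, Loxl3, Loxl4, Plod2 and P4ha1, against 10.9% of all genes, and Loxl2 was higher by at least as much, against 9.14%. Lox in p53-null cells was at 5.09% of its WT level, a log2 difference of -4.21 ± 0.021 (adjusted p = 1.1e-19). Loxl1 was at 9.55% (log2 difference -3.07 ± 0.028) and Plod2 at 12.3% (-2.68 ± 0.033). Loxl2 was 27.7-fold higher in p53-null cells, a log2 difference of 3.55 ± 0.032 (adjusted p = 1.4e-17), and 4.60 with the pseudocount of 0.1. It passed the filter on low values through that line alone, so this p is not independent of the filter. The epithelial markers Krt18 and Krt19, given above, were likewise higher in that line, while Cdh1 of the same list was lower. The part of these markers in the differences was not tested.

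In glutamine-free medium the lines differed in 9 of the 10 genes, 5 higher in p53-null cells and 4 lower, with 91.4% of all genes called, 51.4% higher and 40.0% lower. Median centring gave 5 and 5 of the 10, and 5002 higher and 5397 lower genes in all. By at least 2-fold, 3 (Loxl2, Loxl3 and P4ha2) were higher, against 10.7% of all genes, and 4 were lower, against 7.88%. Quantile normalization put Loxl3 under that cutoff, at 0.91. Loxl3, Plod1 and P4ha2, lower in p53-null cells with glutamine, were higher there without it. Loxl3 had log2 differences of -1.05 ± 0.048 with and 1.14 ± 0.048 without glutamine (adjusted p = 1.4e-10 and 5.6e-11). P4ha2 had -0.47 ± 0.025 and 1.16 ± 0.025 (adjusted p = 8.6e-10 and 7.6e-14), and Plod1 -0.85 ± 0.032 and 0.28 ± 0.032 (adjusted p = 2e-11 and 2.6e-06). Lox, Loxl1, Loxl4 and Plod2 stayed lower in p53-null cells, at log2 differences of -2.81 ± 0.021, -2.49 ± 0.028, -1.84 ± 0.023 and -1.69 ± 0.033. Loxl2 was 82.2-fold higher in mean RPKM, a log2 difference of 3.76 ± 0.032, and 5.74 with the pseudocount of 0.1. It passed the filter on low values through the p53-null line alone, so its place among the 3 is not independent of the filter. The fold rests on a WT mean of 0.182 RPKM, near the floor. P4ha1 did not pass on the deposited scale (-0.01 ± 0.017, adjusted p = 0.56) and was called lower with median centring and with quantile normalization (-0.15 and -0.10) and higher with rescaling to one sum (0.13), where the median of all genes shifted by 0.13, against -0.14 with median centring.

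**Figure D4:**
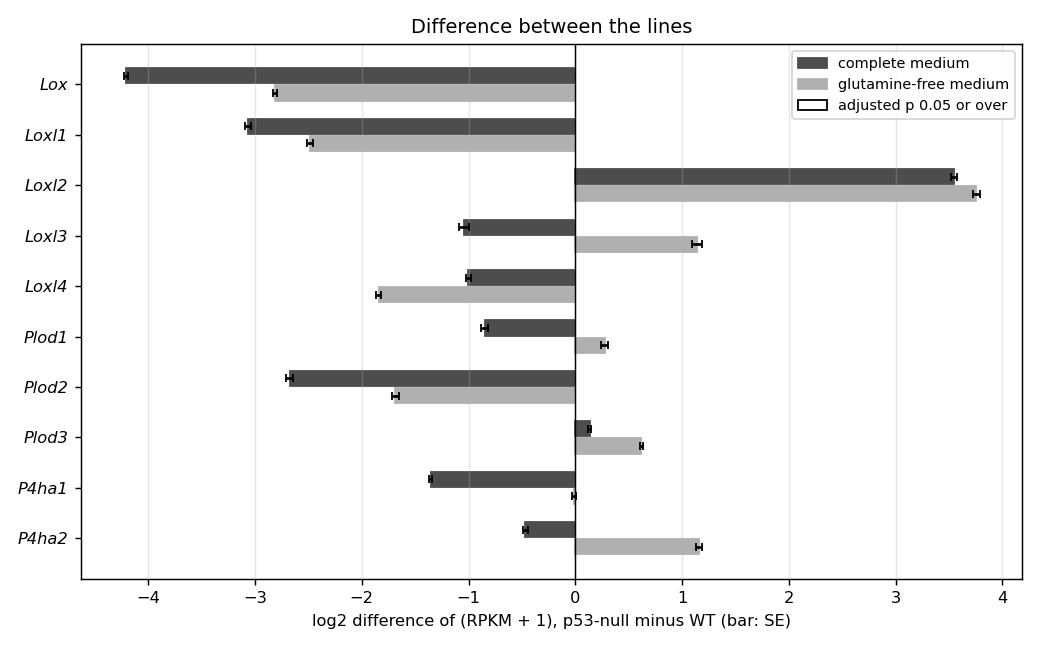
Difference between the lines in log2(RPKM + 1), p53-null minus WT, in complete (dark) and glutamine-free (light) medium, with SE as error bars. Loxl3, Plod1 and P4ha2 lie left of 0 in complete and right of 0 in glutamine-free medium, and Lox, Loxl1, Loxl4 and Plod2 lie left in both.

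By level, the order of the genes in WT complete libraries was Lox, Loxl1, P4ha2, P4ha1, Plod3, Plod2, Plod1, Loxl4, Loxl3 and Loxl2, and of neighbours in that order only Loxl1 and P4ha2, and P4ha2 and P4ha1, overlapped in their libraries. In WT glutamine-free libraries it was Lox, Loxl1, Loxl4, Plod3, P4ha1, P4ha2, Plod2, Plod1, Loxl3 and Loxl2, with overlap between Loxl1 and Loxl4 and among P4ha1, P4ha2 and Plod2. In p53-null complete libraries it was Plod3, P4ha2, Loxl2, Lox, P4ha1, Plod1, Loxl4, Loxl3, Loxl1 and Plod2, with no neighbours overlapping. Without glutamine P4ha2 led in that line, followed by Plod3, P4ha1, Loxl2, Plod1, Loxl4 and Plod2, before the overlapping Lox, Loxl3 and Loxl1. Among all entries of the table, Lox exceeded 99.3% in WT complete and 56.4% in p53-null glutamine-free libraries.

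The 3 genes with the widest range over group means were Lox, Loxl2 and Loxl1. Of 10232 other genes, those with the highest Pearson correlation with Lox over the 12 libraries in log2(RPKM + 1) were Srebf2, Nrn1 and Sh3kbp1 (each r = 0.999). With Loxl2 they were Lama5, Thsd7a and Mbp (r = 0.999 each), and with Loxl1 they were Foxd1 (r = 0.9995), Txndc12 and Irx1 (r = 0.999 each). Foxd1 was at 37.2, 19.9, 0.359 and 0.557 RPKM and Lama5 at 0.846, 0.374, 40.1 and 34.9 RPKM in the order WT complete, WT glutamine-free, p53-null complete and p53-null glutamine-free. The points form 4 tight groups, so these values describe likeness over 4 levels.

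Most genes for proteins that fold and modify procollagen beside these enzymes fell in WT cells. Of 20 listed genes 18 were tested. In WT 17 fell and none rose, with a median log2 change of -0.81, against 44.0% of all genes lower and 46.0% higher. In p53-null cells 6 rose and 8 fell, with a median of -0.07, against 50.0% of all genes higher and 32.0% lower. Median centring gave 6 and 12 there, and quantile normalization 7 and 10. P4ha3, the remaining α subunit gene, went from 3.89 ± 0.299 to 0.150 ± 0.0148 RPKM in WT and from 5.64 ± 0.231 to 0.985 ± 0.164 RPKM in p53-null cells, so it fell in both lines (log2 change -2.09 and -1.74, adjusted p = 8e-13 and 2.1e-11). P3h1 and Crtap encode partners in the prolyl 3-hydroxylation complex. P3h1 went from 21.8 ± 0.268 to 9.37 ± 0.294 RPKM in WT and from 7.88 ± 0.185 to 10.4 ± 0.0621 RPKM in p53-null cells. Crtap fell in both lines, from 49.3 ± 0.230 to 16.0 ± 0.600 and from 33.3 ± 1.33 to 26.6 ± 1.59 RPKM. The prolyl isomerase gene Fkbp14 went from 8.94 ± 0.135 to 1.40 ± 0.0719 RPKM in WT, the transcription factor gene Creb3l1 from 4.35 ± 0.124 to 0.302 ± 0.0315 RPKM, and Sec23a, of the coat that carries procollagen from the endoplasmic reticulum, from 26.1 ± 0.554 to 9.79 ± 0.286 RPKM. These 3 also fell in p53-null cells, by 0.25, 0.79 and 0.15 on the log2 scale.

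Among genes that trim procollagen outside the cell, 5 of 8 were tested. In WT 3 fell and 1 rose (median -0.43), and in p53-null cells all 5 tested fell (median -0.25), of which quantile normalization kept 4. Over all genes 44.0% were lower and 46.0% higher in WT, and 32.0% lower and 50.0% higher in p53-null cells. Pcolce, the enhancer of procollagen C-proteinase, went from 168 ± 0.599 to 15.5 ± 0.143 RPKM in WT and from 184 ± 2.45 to 117 ± 2.01 RPKM in p53-null cells. Bmp1, that proteinase, went from 15.5 ± 0.314 to 7.03 ± 0.251 RPKM in WT and from 25.6 ± 0.668 to 23.6 ± 0.458 RPKM in p53-null cells. The N-proteinase gene Adamts2 fell in both lines, from 0.396 ± 0.0268 to 0.0398 ± 0.00436 RPKM in WT and from 2.05 ± 0.103 to 0.464 ± 0.0469 RPKM in p53-null cells. Adamts2 passed the filter on low values through p53-null complete libraries alone, and its WT means were under 1 RPKM. Its relative Adamts14 rose in WT from 1.15 ± 0.0758 to 2.09 ± 0.0825 RPKM. In p53-null cells Adamts14 was near the floor, at 0.162 ± 0.0156 RPKM with and 0.0918 ± 0.0109 RPKM without glutamine. That fall, counted above, was -0.09 on the log2 scale (limma adjusted p = 0.031). Pcolce2 did not pass in WT and fell in p53-null cells (log2 change -0.25), with 0.472 ± 0.0358 RPKM in WT complete and 20.1 ± 0.533 RPKM in p53-null complete libraries.

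Most genes for substrates of the lysyl oxidases and their assembly partners fell in both lines. Of 19 tested from 22 listed, 16 fell and 3 rose in WT (median -1.41), and 15 fell and 3 rose in p53-null cells (median -0.64). The shares over all genes were 44.0% lower and 46.0% higher in WT, and 32.0% lower and 50.0% higher in p53-null cells. This list was made with falls of collagens in these libraries known, so its count is not independent evidence of direction. Col1a2, the α2 chain of collagen I, went from 712 ± 1.42 to 87.4 ± 1.63 RPKM in WT and from 29.5 ± 0.619 to 12.9 ± 0.294 RPKM in p53-null cells, while its partner Col1a1 went from 240.2 ± 2.12 to 10.97 ± 0.406 RPKM in WT and from 168 ± 3.26 to 103 ± 2.11 RPKM in p53-null cells. Col11a1, a chain of a fibril-nucleating collagen, went from 25.4 ± 0.354 to 0.426 ± 0.0287 RPKM in WT and from 9.28 ± 0.164 to 3.92 ± 0.0394 RPKM in p53-null cells. The matricellular gene Thbs1 went from 88.7 ± 0.814 to 4.75 ± 0.0465 RPKM in WT and from 103 ± 0.876 to 55.1 ± 0.849 RPKM in p53-null cells. Col3a1 went from 47.6 ± 0.430 to 4.25 ± 0.217 RPKM in WT and from 28.6 ± 0.510 to 8.84 ± 0.00571 RPKM in p53-null cells, and Col2a1, the chain of cartilage collagen, from 11.6 ± 0.0423 to 1.76 ± 0.0699 RPKM in WT and from 0.254 ± 0.0236 to 0.0881 ± 0.0105 RPKM in p53-null cells.

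Genes for the handling of copper, iron, zinc or ascorbate went both ways in WT, with 3 higher and 5 lower of 8 tested from 10 listed (median -0.11). In p53-null cells 7 rose and 1 fell (median 0.29), and with median centring 5 rose and 2 fell. Of all genes 46.0% were higher and 44.0% lower in WT, and 50.0% higher and 32.0% lower in p53-null cells. Atox1, the chaperone that hands copper to the transporter that loads lysyl oxidase, went from 95.7 ± 2.63 to 31.7 ± 2.80 RPKM in WT and from 51.6 ± 1.09 to 61.3 ± 0.905 RPKM in p53-null cells. Atp7a, that transporter, rose in both lines, from 6.44 ± 0.0697 to 7.57 ± 0.140 and from 4.86 ± 0.0280 to 7.85 ± 0.0333 RPKM. Slc39a13, the zinc transporter linked to lysyl hydroxylation, went from 19.7 ± 0.0197 to 6.49 ± 0.163 RPKM in WT, and Tfrc, the receptor for iron uptake, from 53.6 ± 1.11 to 131 ± 1.45 RPKM. In p53-null cells Slc39a13 fell by 0.29 on the log2 scale, and the Tfrc change was 0.05. The copper transporter gene Slc31a1 rose in p53-null cells from 12.4 ± 0.277 to 19.2 ± 0.253 RPKM (log2 change -0.05 in WT), and Slc31a2 fell in WT from 6.22 ± 0.202 to 3.37 ± 0.236 RPKM (0.21 in p53-null cells).

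Lox, Plod2, P4ha1 and P4ha2 are known targets of hypoxia-inducible factors, and Lox is also induced by TGF-β, so other targets were set beside them. Of 19 tested hypoxia-inducible genes (21 listed) 5 rose and 11 fell in WT (median -0.18), against 46.0% and 44.0% of all genes. In p53-null cells 8 rose and 6 fell (median 0.03), a balance near that of all genes, 50.0% and 32.0%, and median centring gave 8 and 9 (median -0.07). Vegfa, the endothelial growth factor gene, went from 22.8 ± 0.147 to 115 ± 1.43 RPKM in WT and Ndrg1 from 38.3 ± 0.930 to 151 ± 1.83 RPKM, while the glycolytic gene Aldoa went from 238 ± 3.00 to 78.0 ± 2.12 RPKM. The peptide hormone gene Adm and the glycolytic regulators Pfkfb3 and Pfkfb4 also fell in WT, by 1.45, 1.35 and 1.14 on the log2 scale. In p53-null cells Vegfa and Pfkfb3 rose (log2 change 0.29 and 0.57), Aldoa and Pfkfb4 fell (-0.66 and -0.34), and Ndrg1 and Adm did not pass (0.03 and -0.02). Adm was nearly absent from that line, at 0.0163 RPKM with and 0.0057 RPKM without glutamine, so a change could not show. Of 12 TGF-β-inducible genes 10 fell and 2 rose in WT (median -1.88), against 44.0% of all genes lower and 46.0% higher. In p53-null cells 7 fell and 4 rose (median -0.14), against 32.0% lower and 50.0% higher. Ltbp2, a latent TGF-β-binding protein gene, went from 22.9 ± 0.139 to 0.712 ± 0.0499 RPKM in WT and Tgfbi from 40.3 ± 0.790 to 2.60 ± 0.187 RPKM. In p53-null cells Ltbp2 fell from 0.397 ± 0.0284 to 0.161 ± 0.0225 RPKM, which the pseudocount of 1 compressed to a log2 change of -0.27. Tgfbi fell there from 2.31 ± 0.0328 to 0.0934 ± 0.0238 RPKM. Acta2, smooth muscle actin, fell in both lines, from 43.8 ± 0.638 to 3.71 ± 0.148 RPKM in WT and from 106 ± 0.928 to 11.7 ± 0.417 RPKM in p53-null cells. The ligand genes Tgfb1 and Tgfb3 fell in WT (log2 change -1.97 and -1.91), and in p53-null cells Tgfb1 fell (-0.22) and Tgfb3 did not pass (-0.03). Cyr61, a matricellular protein gene, fell in WT from 117 ± 0.943 to 23.4 ± 0.575 RPKM and rose in p53-null cells from 40.8 ± 0.710 to 59.7 ± 2.02 RPKM.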

How the data were processed

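Libraries were made from 0.5 ug of total RNA with a TruSeq RNA V2 kit, per the labels' protocols. CASAVA 1.8, HISAT2 2.0.4 and Partek on mm10 are named in the submitters' processing notes, while the sources used here do not give their order, the annotation or the counting rules. Values deposited by the authors are RPKM, 1 for each gene in each library. Of low values in 3403 genes with 1 annotated transcript, 57.6 to 61.9% were whole reads within 0.05, so counts were not recovered and precision is given as the SD. Libraries of a group differed by 1.18 to 1.98 times the variance of counting alone, an approximation over 12 pairs.

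Genes that reached 1 RPKM in 3 or more of the 12 libraries were fitted as log2(RPKM + 1) on 4 group means with limma 3.58.1 (R 4.3.3, mean-variance trend), giving 5 comparisons. The fit was tested on simulated data. The 10 genes and all lists were chosen with earlier results of these data known. From each list the text names up to 6 called genes with the largest change in either medium comparison, and, for the 3 of the 10 genes with the widest range, the 3 most correlated genes with at least 2 RPKM, without predicted genes, small RNAs and pseudogenes. Coordinates are from GENCODE M21 (GRCm38). Alternatives were other pseudocounts, filters, scalings, variance models, a replicate block and each library left out.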

Additional observations from a re-analysis of the deposited data

Results flagged for a closer look

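The response to glutamine withdrawal differed between the WT and the p53-null line in all 10 genes on the deposited scale, by the test of the difference itself in limma, and in 9 of them under each scaling tried. WT minus p53-null, on the log2 scale, the difference was -2.19 for Loxl3, -1.63 for P4ha2, -1.40 for Lox, -1.34 for P4ha1, -1.12 for Plod1, -0.99 for Plod2, -0.58 for Loxl1, -0.49 for Plod3, -0.21 for Loxl2 and 0.84 for Loxl4 (adjusted p from 3.8e-14 for P4ha1 to 0.00082 for Loxl2). Over all genes tested 84.9% passed the same test. With 3 libraries a group, single libraries were not screened for outliers. The Loxl2 difference was -0.11 with median centring (adjusted p = 0.055) and 0.13 under quantile normalization, so its direction is not given.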

How the results depend on the processing

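Leaving out each library in turn gave the same counts of the 10 genes called, higher and lower, in the WT (1 and 9) and p53-null (6 and 2) medium comparisons, the line comparisons in complete (2 and 8) and glutamine-free (5 and 4) medium and the difference of responses (1 and 9). It turned the sign of 1 log2 value, Loxl3 in p53-null cells, which ranged from -0.0856 to 0.0067 (the latter without p53-null glutamine-free replicate 1) and was not called in either. Other pseudocounts, filters, no trend and fits of single comparisons changed no call of the 10 genes. Same-numbered libraries did not deviate together (r = -0.11 to 0.088 over 18 pairs, and 3 of 12 libraries correlated best with their own number), and the replicate block changed no call of these genes and gave 5277 higher genes in WT against 5276. Quantile normalization gave 4 genes lower in p53-null cells and 2 higher in the difference of responses, and median centring 5 lower in p53-null cells. Plod3 in p53-null cells became -0.093 and -0.048 under these 2, Loxl2 in the difference of responses 0.13 under quantile normalization, and rescaling to one sum gave 0.0077 for Loxl4 in p53-null cells and 0.13 for P4ha1 between the lines without glutamine. The cause was not tested.

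Isoenzyme log2 ratios moved by more than the SD under quantile normalization for P4ha2 over P4ha1 in p53-null complete and glutamine-free (1.01 and 1.25), Plod2 over Plod1 in p53-null complete (-2.00) and Plod3 over Plod1 in WT glutamine-free, p53-null complete and p53-null glutamine-free libraries (0.97, 1.65 and 1.45). With 1 added to each RPKM they became 0.89 and 1.15, -1.59 and -1.48 (Plod2 over Plod1 in both p53-null groups), and 0.52, 0.99, 1.496 and 1.33 (Plod3 over Plod1 in WT complete, WT glutamine-free, p53-null complete and p53-null glutamine-free). No ratio moved by more than its SD when a library was left out. The mean of a group cannot shift by more than that SD on such a removal, so this is no test of the ratios. The count test planned for recovered reads was not run, since reads were not recovered. Depth limits Loxl2 in WT most.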
